A study of Mus musculus with 5 samples.

Results

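The genes described here are the subunits of the NF-kB transcription factor and the genes of its feedback loops, namely Nfkb1, Nfkb2, Rela, Relb, Nfkbia, Nfkbib, Nfkbie, Tnfaip3, Birc2 and Birc3. They were chosen by name for their place in the pathway, with earlier results of these data known. All 10 were among the 12934 genes of the count table, and all 10 were among the 12483 genes tested. EpH4 is a mouse mammary epithelial cell line, and every library came from EpH4 cells that stably expressed Cas9 and were selected with blasticidin and then puromycin, and which the methods call stable clones without giving their number. The 3 sgControl libraries carried a control sgRNA, and the 2 sgMef2d libraries carried an sgRNA against Mef2d, which encodes a MEF2 transcription factor. The labels do not say which of the study's Mef2d sgRNAs each sgMef2d library carried, nor whether replicates were separate cultures, so the p-values measure the spread between these libraries, which may be technical.

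NF-kB is a dimer of Rel proteins that waits in the cytoplasm bound to an IkB inhibitor. Signals from TNF, interleukin-1 or Toll-like receptors activate the IKK kinases, IkB is degraded, and the dimer enters the nucleus. In a slower, non-canonical branch, the kinase NIK accumulates and the Nfkb2 product is processed to pair with RelB. Among the genes that NF-kB induces are its own brakes, such as IkB alpha and A20, and in the mammary gland the pathway is known for its part in epithelial growth and in the response to inflammation.

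Library totals lay between 13601145 and 20498563 counts, and the 10 genes had between 350 and 4996 counts in a library. Counting error was thus larger for the scarcer of them, such as Birc3. Mef2d itself reached between 64.3 and 76.9 CPM (counts scaled to library size by TMM) in the sgControl libraries, and 64.2 and 65.8 CPM in the sgMef2d libraries, which is -0.12 on the log2 scale, at an adjusted p of 0.400 (edgeR's quasi-likelihood test, Benjamini-Hochberg adjustment, written below as edgeR adjusted p). RNA counts do not show whether the edited transcript still encodes protein. sgControl replicate 1 stood apart, with a chi-square per degree of freedom of 10.3 and 13.3 against its own replicates, where replicates 2 and 3 differed by 1.99 and counting error alone gives 1. Those of the 10 genes whose call changed without it are named with their values. Of the 7 epithelial markers 6 were listed, without Krt19. Krt8, Krt18, Epcam and Cdh1 were at 234 CPM or more in each library, Cldn3 and Cldn7 were between 84.8 and 191 CPM, and Krt18 was lower in sgMef2d past the threshold. The 3 leukocyte markers that were listed summed to at most 5.12 CPM, and 0 of the 4 endothelial markers looked for were among the genes listed. Of the 4 basal markers listed, Krt14, Trp63 and Krt5 were higher in sgMef2d past the threshold and Acta2 was lower. Krt5 was at most 0.146 CPM in the sgControl libraries and stood at 15.3 and 14.2 CPM in sgMef2d. The sum of the 4 markers, most of it Krt14, was between 482 and 491 CPM in sgControl and 947 and 1005 CPM in sgMef2d. The 6 fibroblast markers listed summed to between 643 and 767 CPM in sgControl and to 608 and 649 CPM in sgMef2d, with Col1a2 lower and the scarce Col3a1 and Dcn higher past the threshold. The part of these markers in the results below was not tested, and in bulk RNA fewer cells of a type and less RNA per cell cannot be told apart.

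Of the 10 genes, 3 were lower in the sgMef2d EpH4 cells past the threshold of an adjusted p below 0.05, and 0 were higher. The 3 were Tnfaip3, which encodes the ubiquitin-editing brake A20, and Birc2 and Birc3, which encode the ubiquitin ligases cIAP1 and cIAP2. None of the 4 subunit genes and none of the 3 IkB genes passed in edgeR, DESeq2 or limma-voom, although 1 gene of each kind, Nfkb1 and Nfkbia, was lower at an unadjusted edgeR p below 0.05. Over all genes tested, 7.95% passed in either direction, 4.28% as lower and 3.67% as higher. An unadjusted edgeR p below 0.05 was found for 23.2% of all genes tested, in either direction. The median log2 fold change of the 10 genes was -0.14, beside 0.0031 over all genes tested. In 8 of the 10 genes both sgMef2d libraries lay below all sgControl libraries, beside 20.5% of all genes tested on that side and 41.1% whose groups did not overlap in either direction.

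**Figure D1:**
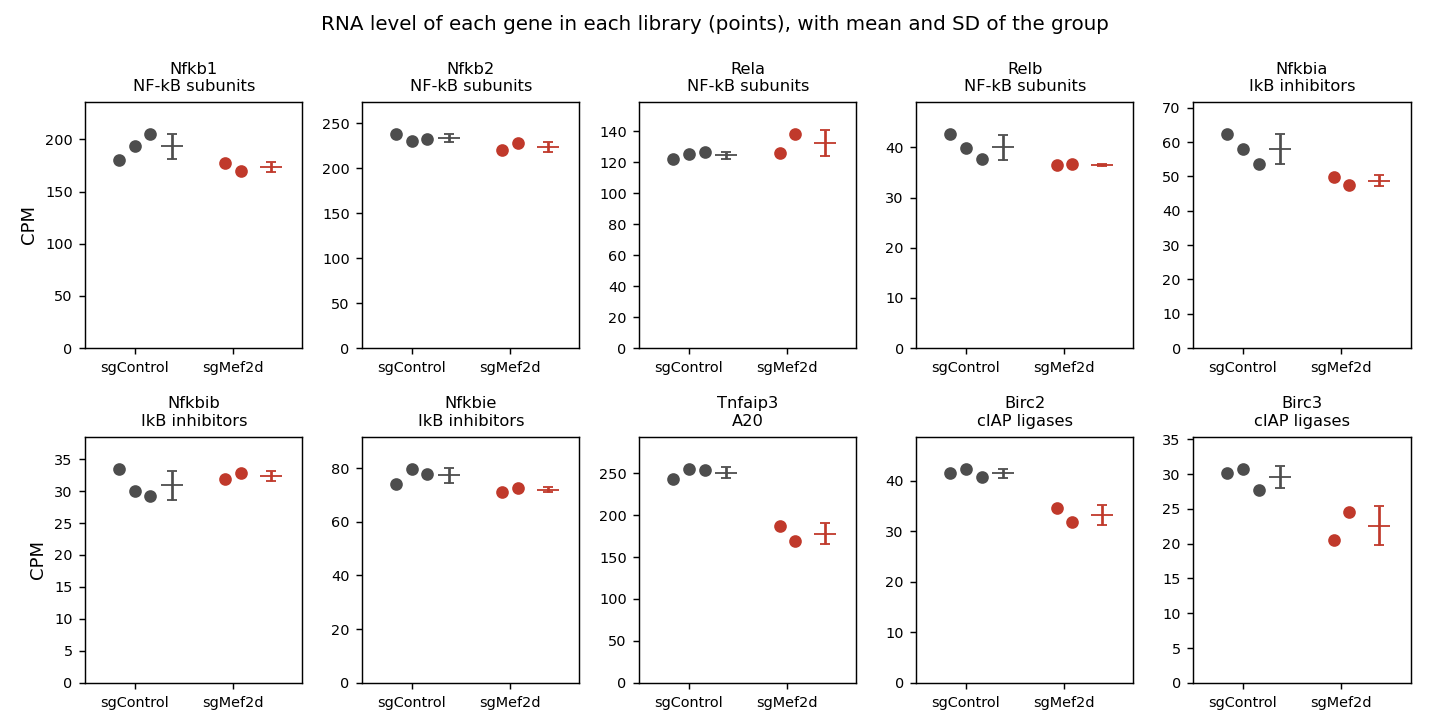
RNA level in CPM (vertical axis, from 0) of each of the 10 genes in each sgControl library (grey points) and sgMef2d library (red points), with the mean and SD of each group beside the points. Tnfaip3 shows the widest gap, with sgMef2d libraries at 187 and 169 CPM and sgControl libraries between 244 and 255 CPM, while the groups overlap for Rela and Nfkbib.

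The activating subunits were examined first. Rela encodes p65, the subunit that carries the transactivation domain of the classical p50-p65 dimer (ENSMUSG00000024927.8, GRCm38 chromosome 19, 5637483 to 5648130). Rela stood at 122, 125 and 126 CPM in sgControl replicates 1, 2 and 3, and at 126 and 138 CPM in sgMef2d replicates 1 and 2. One sgMef2d library lay above the sgControl libraries and the other fell within them. The log2 fold change of Rela was 0.09 (95% interval -0.049 to 0.22, edgeR adjusted p = 0.442). Relb encodes the subunit that pairs with p52 in the non-canonical branch. Relb stood at 42.7, 39.8 and 37.6 CPM in sgControl and at 36.4 and 36.7 CPM in sgMef2d. Both sgMef2d libraries were below the lowest sgControl library by a small margin. The log2 fold change of Relb was -0.13 (95% interval -0.31 to 0.039, edgeR adjusted p = 0.343).

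Nfkb1 and Nfkb2 encode the precursors p105 and p100, which are cut to p50 and p52 and also act as IkB-like inhibitors before they are cut. Nfkb1 (ENSMUSG00000028163.17, chromosome 3) stood at 180, 194 and 205 CPM in sgControl and at 177 and 170 CPM in sgMef2d. The groups did not overlap, but sgControl replicate 1 was close to the sgMef2d libraries. The log2 fold change of Nfkb1 was -0.15 (95% interval -0.30 to -0.0079), and after adjustment over all genes it did not pass (edgeR adjusted p = 0.191). Without sgControl replicate 1, where 29.4% of all genes tested passed, Nfkb1 passed with a log2 fold change of -0.20 (edgeR adjusted p = 7.61e-05). Nfkb2 (ENSMUSG00000025225.15, chromosome 19) was the most abundant of the 10 genes in sgControl per length. Nfkb2 stood at 238, 230 and 232 CPM in sgControl and at 220 and 228 CPM in sgMef2d, with a log2 fold change of -0.06 (95% interval -0.18 to 0.060, edgeR adjusted p = 0.559). Exons of Psd and AC114539.1 on the other strand cover 6.52% and 11.6% of its exon bases, and whether the counting used strand is not given in the sources used here.

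Among the IkB genes, Nfkbia came closest to the threshold. Nfkbia encodes IkB alpha, the inhibitor that NF-kB itself induces and that ends most short responses (ENSMUSG00000021025.8, chromosome 12, 55489410 to 55492647). Nfkbia stood at 62.4, 58.0 and 53.5 CPM in sgControl replicates 1, 2 and 3 and at 49.8 and 47.6 CPM in sgMef2d. Both sgMef2d libraries were below all sgControl libraries, which themselves were spread. sgControl averaged 58.0 ± 4.43 (SD, n = 3) and sgMef2d 48.7 ± 1.58 CPM (SD, n = 2), so that the log2 fold change was -0.25 (standard error 0.079). Its edgeR adjusted p of 0.0768 was short of the threshold. Nfkbia passed without sgControl replicate 1 (log2 fold change -0.19, adjusted p = 0.0139), without sgControl replicate 3 (-0.31, adjusted p = 0.0418) and with length and GC trends removed (-0.31, adjusted p = 0.00467). It also passed with a replicate block (-0.30, edgeR adjusted p = 0.0144). Its highest adjusted p under the alternatives was 0.478.

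Nfkbie encodes IkB epsilon, an inhibitor that is also inducible but acts with a delay. Nfkbie stood at 74.2, 79.8 and 77.9 CPM in sgControl and at 71.2 and 72.6 CPM in sgMef2d, and the log2 fold change was -0.10 (95% interval -0.24 to 0.037, edgeR adjusted p = 0.369). The groups were apart, by less than the range of the sgControl libraries. Nfkbib encodes IkB beta, which is not induced in the same way. Nfkbib stood at 33.5, 30.0 and 29.2 CPM in sgControl and at 31.8 and 32.9 CPM in sgMef2d, and the log2 fold change was 0.06 (95% interval -0.13 to 0.25, edgeR adjusted p = 0.730). The sgMef2d libraries fell inside the sgControl range, and exons of Ccer2 and Sirt2 on the other strand cover 14.5% and 1.94% of the Nfkbib exon bases. With trends by length and GC content taken out of every library, the log2 fold change of Nfkbib turned to -0.0058.

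Tnfaip3 had the widest difference of the 10 genes and the lowest p. A20, its product, removes activating ubiquitin chains from RIPK1 and other signalling proteins and so shuts off IKK activation (ENSMUSG00000019850.11, chromosome 10, 19000910 to 19015657). Tnfaip3 stood at 244, 255 and 253 CPM in sgControl replicates 1, 2 and 3 and at 187 and 169 CPM in sgMef2d replicates 1 and 2. Each sgMef2d library was far below the lowest sgControl library, beyond the spread within either group. sgControl averaged 251 ± 6.27 (SD, n = 3) and sgMef2d 178 ± 12.7 CPM (SD, n = 2), so that the log2 fold change was -0.50 (standard error 0.063, 95% interval -0.63 to -0.36), which is a level 0.710 times that of sgControl. The edgeR adjusted p of 7.97e-04 placed Tnfaip3 at rank 107 of 12483 by p. Tnfaip3 fell under each of the 15 alternatives that gave a separate test, with adjusted p values between 8.93e-20 and 0.0383, and without sgControl replicate 1 its log2 fold change was -0.52.

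The promoter sequences of RefSeq (GRCm38.p6) were available for 8 of the 10 genes in 12 windows of 300 bases, which run from 250 bases before a start site to 50 bases after it. Nfkb1 and Relb had no entry. The windows were searched on both strands for the kB consensus that NF-kB binds, written as 3 G, a purine, any base, 3 pyrimidines and 2 C. A match was found in 5 of the 12 windows, in the genes Nfkb2, Nfkbia and Tnfaip3, and in 5.80% of the 32851 windows of all genes. Windows of Nfkb2 overlap, and 1 site is counted in 2 of the 5. No match was found in the windows of Rela, Nfkbib, Nfkbie, Birc2 and Birc3. The consensus of MEF2 factors was found in 0 of the 12 windows and in 3.19% of all windows. These are matches of letters and not measured binding. The 120 bases before a RefSeq start site are shown for Tnfaip3, which fell, and for Nfkbia, which did not pass, with the kB match in capitals. Both read as the consensus on the strand opposite to the gene, 12 to 3 bases before this Tnfaip3 start site and 29 to 20 bases before that of Nfkbia. The Tnfaip3 stretch lies inside the annotated gene, which runs to 19015657, and the other Tnfaip3 window had no match. The Nfkbia stretch lies outside the annotated gene, which ends at 55492647.
Tnfaip3, chr10:19015411-19015530, minus strand: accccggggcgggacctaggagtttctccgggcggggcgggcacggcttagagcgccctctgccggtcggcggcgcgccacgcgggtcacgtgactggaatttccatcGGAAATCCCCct
Nfkbia, chr12:55492648-55492767, minus strand: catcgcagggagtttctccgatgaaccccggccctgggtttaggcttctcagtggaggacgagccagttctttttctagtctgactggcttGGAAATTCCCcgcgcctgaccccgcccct

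Nfkb2 had the most matches of the 8 genes searched, at 3 separate places over its 3 windows. They are shown with 10 bases on either side and the match in capitals, since the gene carries the most matches and did not pass the test. The match in site A also reads as a kB consensus on the other strand.
Nfkb2 site A, chr19:46304688-46304717, plus strand: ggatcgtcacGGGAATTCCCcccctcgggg
Nfkb2 site B, chr19:46304716-46304745, plus strand: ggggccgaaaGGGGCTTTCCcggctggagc
Nfkb2 site C, chr19:46305695-46305724, plus strand: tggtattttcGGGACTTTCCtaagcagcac

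The cIAP genes were both lower in sgMef2d. cIAP1 and cIAP2 attach ubiquitin to RIPK1 in the TNF receptor complex, which drives the classical branch, and together with TRAF2 and TRAF3 they keep NIK low, which holds back the non-canonical branch. Birc2 and Birc3 are neighbours on chromosome 9, on the same strand and 11634 bases apart. Birc2 (ENSMUSG00000057367.12, 7818227 to 7837064) stood at 41.4, 42.3 and 40.6 CPM in sgControl and at 34.6 and 31.9 CPM in sgMef2d. The 3 sgControl libraries lay close together, clear of both sgMef2d libraries. sgControl averaged 41.4 ± 0.867 (SD, n = 3) and sgMef2d 33.2 ± 1.95 CPM (SD, n = 2), so that the log2 fold change was -0.32 (standard error 0.075, edgeR adjusted p = 0.0261).

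Birc3 (ENSMUSG00000032000.17, 7848699 to 7873186) stood at 30.2, 30.8 and 27.8 CPM in sgControl and at 20.6 and 24.6 CPM in sgMef2d. The sgMef2d libraries were both lower, and they differed more from each other than the sgControl libraries did. sgControl averaged 29.6 ± 1.60 (SD, n = 3) and sgMef2d 22.6 ± 2.82 CPM (SD, n = 2), so that the log2 fold change was -0.40 (standard error 0.098, edgeR adjusted p = 0.0315). Of the 50-base words in the Birc3 transcripts, 7.38% are found in other genes too, above all in Gm7019, and 65 words are shared with Birc2. Both calls were lost when any of 3 libraries was left out, with log2 fold changes between -0.38 and -0.26 for Birc2 and between -0.53 and -0.27 for Birc3. Without sgControl replicate 2, the adjusted p was 0.0963 for Birc2 and 0.106 for Birc3 in the same test. Without sgMef2d replicate 1 it was 0.117 and 0.347, and without sgMef2d replicate 2 it was 0.325 and 0.0696. Both genes kept their direction in all alternatives, and Birc2 did not pass in DESeq2 (adjusted p = 0.0557), where Birc3 did.

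**Figure D2:**
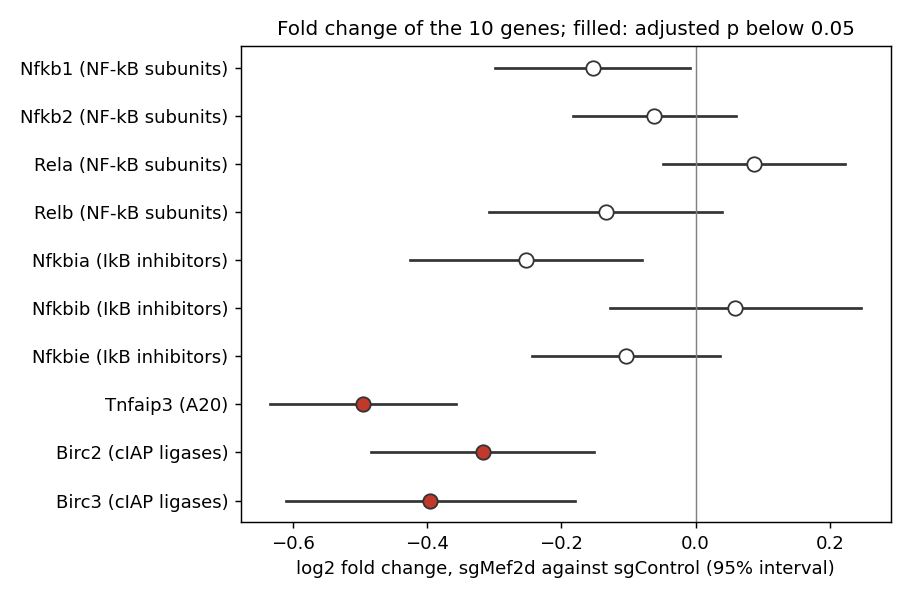
Log2 fold change of sgMef2d against sgControl (horizontal axis) for the 10 genes, with 95% intervals from edgeR's quasi-likelihood fit as lines and filled points for an adjusted p below 0.05. Tnfaip3 (-0.50), Birc3 (-0.40) and Birc2 (-0.32) are filled, and Nfkbia (-0.25) and Nfkb1 (-0.15) are open although their unadjusted intervals lie below 0.

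The count of genes past the threshold also varied as single libraries were left out. Without sgControl replicate 1, 5 of the 10 genes passed, all lower, namely Tnfaip3, Birc2, Birc3, Nfkb1 and Nfkbia. Over all genes tested that fit gave 3639 calls, or 29.4%. Without sgControl replicate 3, 4 of the 10 passed, Nfkbia being the added gene, beside 6.51% of all genes tested. Without sgControl replicate 2, sgMef2d replicate 1 or sgMef2d replicate 2, Tnfaip3 alone of the 10 passed, beside 4.84%, 1.88% and 1.83% of all genes tested.

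**Figure D3:**
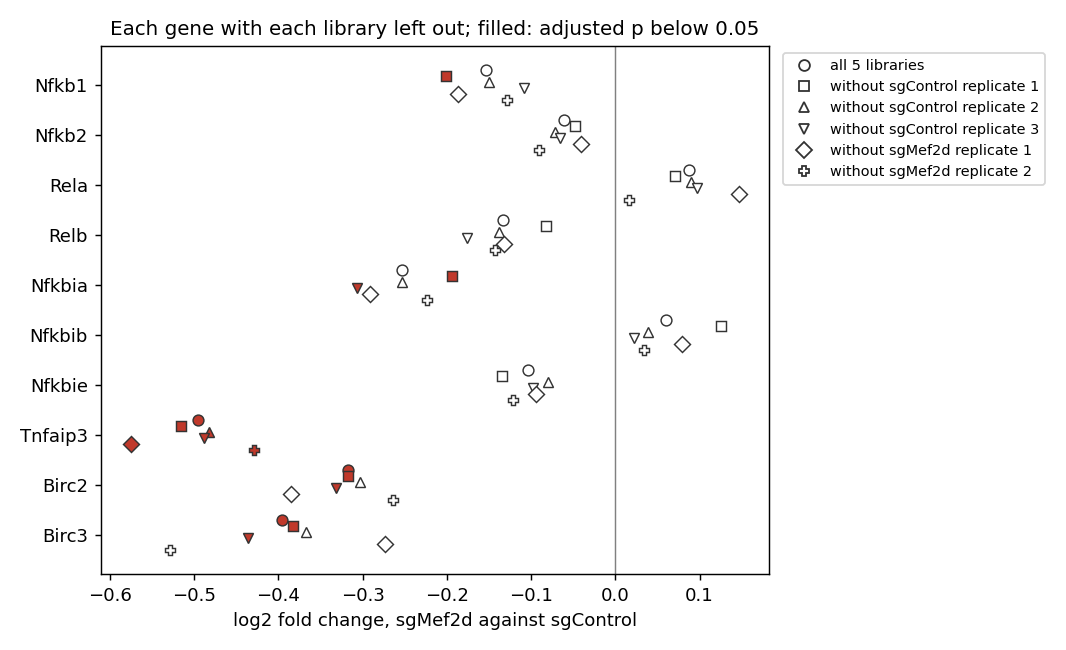
Log2 fold change of sgMef2d against sgControl (horizontal axis) for each of the 10 genes with all 5 libraries and with each library left out (symbols), filled where the edgeR adjusted p was below 0.05. Tnfaip3 is filled under every symbol, between -0.57 and -0.43, while Birc2 and Birc3 are filled with all libraries and without sgControl replicate 1 or 3.

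Levels were then set against each other per length, as CPM per kilobase of annotated exon in sgControl. Nfkb2 was highest at 50.9 ± 0.882 (SD, n = 3), followed by Rela at 40.5 ± 0.698, Nfkbia at 36.0 ± 2.75, Tnfaip3 at 34.7 ± 0.867 and Nfkbie at 25.4 ± 0.930. Nfkb1 at 16.0 ± 1.02, Nfkbib at 14.3 ± 1.05, Relb at 10.3 ± 0.654, Birc2 at 9.05 ± 0.189 and Birc3 at 5.91 ± 0.319 came lower. The sgControl values of Nfkbia and Tnfaip3, and of Nfkb1 and Nfkbib, overlapped, so these neighbours cannot be ordered. In sgMef2d, Tnfaip3 was at 24.6 ± 1.76 and Nfkbia at 30.3 ± 0.983 CPM per kilobase (SD, n = 2), and their libraries did not overlap on this scale. Their order in sgMef2d was not compared per kilobase of longest transcript. The order depends on the length used, most of all for Nfkb1, since its annotated exons span 12061 bases and its longest transcript 4149. Per kilobase of longest transcript Nfkb2 stayed highest at 60.7, while Nfkb1 was at 46.6 and overlapped with Rela at 45.9. On that scale Tnfaip3 at 40.4 and Nfkbia at 36.7 also overlapped, as did Birc2 at 12.4 and Relb at 12.2, so these pairs cannot be ordered.

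Within a library, the ratio of 2 members does not depend on the scaling of the libraries, and 6 ratios were compared as log2 ratios of counts. The ratio of Nfkbia to Rela, an inhibitor to its main target, was -0.97, -1.11 and -1.24 in sgControl and -1.34 and -1.54 in sgMef2d. Both sgMef2d values were below all sgControl values, and the means differed by -0.33. The ratio of Nfkbib to Nfkbia was between -0.95 and -0.87 in sgControl, and -0.65 and -0.53 in sgMef2d, higher by 0.32. Both comparisons gave p = 0.1 in the exact permutation test, two-sided, which is the smallest p that 3 against 2 libraries allow, and 0.3 after Benjamini-Hochberg adjustment over the 6 ratios, so this test cannot reach the threshold with these libraries. Relb to Rela differed by -0.21 (exact permutation p = 0.2), with both sgMef2d libraries below sgControl. The ratios of Nfkb2 to Nfkb1, Nfkbie to Nfkbia and Birc3 to Birc2 overlapped between the groups, with differences of 0.09, 0.14 and -0.07. As single libraries were left out, the first ranged from 0.037 to 0.15 and the second from 0.061 to 0.21, lowest without sgMef2d replicate 2 and without sgControl replicate 1.

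The other genes of the pathway were taken from lists compiled for this comparison, with earlier results of these data known. They held 130 genes in all, of which 110 were tested. Of these 19 passed, 9 higher and 10 lower in sgMef2d, which is 17.3% beside 7.95% of all genes tested. Their median log2 fold change was -0.0025. Without sgMef2d replicate 1 or 2 the count was 6, where 1.88% and 1.83% of all genes passed, and without sgControl replicate 1 it was 45, with 23 higher and 22 lower, where 29.4% of all genes passed.

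Of the 5 other Rel and IkB family genes, 2 passed, in opposite directions, which is 40% beside 7.95% of all genes tested. Nfkbiz encodes IkB zeta, a nuclear IkB that helps to induce secondary response genes. Nfkbiz stood at 60.4, 56.4 and 56.5 CPM in sgControl and at 78.8 and 71.3 CPM in sgMef2d, and the log2 fold change was 0.38 (edgeR adjusted p = 0.00750), and it did not pass without sgMef2d replicate 1 (adjusted p = 0.184). Rel, which encodes the subunit c-Rel, stood at 28.9, 27.2 and 28.1 CPM in sgControl and at 21.8 and 22.9 CPM in sgMef2d, and the log2 fold change was -0.33 (edgeR adjusted p = 0.0340). The 2 sgMef2d libraries were on one side of all sgControl libraries for both genes, as they were for 41.1% of all genes tested. The log2 fold change of Rel stayed between -0.37 and -0.30 as single libraries were left out, but its call was lost without any single library other than sgControl replicate 1, in DESeq2 (adjusted p = 0.0973), and once the trend with length and GC content was removed (adjusted p = 0.0997).

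Among the 16 receptors listed for the pathway, 13 were tested and 5 passed, 1 higher and 4 lower, which is 38.5% beside 7.95% of all genes tested. Il1r1, the interleukin-1 receptor, averaged 20.5 ± 1.16 (SD, n = 3) in sgControl and rose to 31.3 ± 1.86 CPM (SD, n = 2), and the log2 fold change was 0.61 (edgeR adjusted p = 0.00157). Tnfrsf1b, the TNF receptor without a death domain, fell from 37.0 ± 3.41 to 25.2 ± 0.668 CPM, and the log2 fold change was -0.55 (edgeR adjusted p = 0.00450). Tlr2, a receptor for bacterial lipoproteins, fell by 0.55 and Il18r1, the interleukin-18 receptor, by 0.28 on the log2 scale, though Il18r1 did not pass without sgControl replicate 2 (edgeR adjusted p = 0.0666). Tlr4, the lipopolysaccharide receptor, fell by 0.39 on that scale and is named after its value was seen. Tnfrsf1a, the TNF receptor with a death domain, was between 89.1 and 92.8 CPM in sgControl and at 95.2 and 96.4 CPM in sgMef2d, at an edgeR adjusted p of 0.540, and is also named after its value was seen. Without sgMef2d replicate 1 only Il1r1 of these receptors passed, and without sgMef2d replicate 2 none of the 13 did, in fits that called 1.88% and 1.83% of all genes, with the adjusted p of Il1r1 at 0.0528 in that test.

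The genes between receptor and nucleus are set beside the 7.95% of all genes tested that passed. Of 23 adaptors and ubiquitin ligases tested, 1 was lower, or 4.35%, and 0 were higher. That gene was Traf1, an adaptor that binds TRAF2 and the cIAPs and is itself an NF-kB target. Traf1 stood at 34.2, 30.9 and 26.5 CPM in sgControl and at 23.5 and 21.3 CPM in sgMef2d, and the log2 fold change was -0.45 (edgeR adjusted p = 0.0307). The sgControl libraries were spread, and the call was lost without sgControl replicate 2 (adjusted p = 0.0786) or either sgMef2d library. Of the 13 kinases 0 passed in edgeR, DESeq2 and limma-voom, 2 were lower at an unadjusted edgeR p below 0.05, and their median log2 fold change was -0.07. Of the 17 other brakes tested 0 passed in these tools either, 3 were higher and 5 lower at an unadjusted edgeR p below 0.05, and their median was -0.03. Over all genes tested 23.2% had an unadjusted edgeR p below 0.05. Without sgControl replicate 1, 3 adaptors or ubiquitin ligases passed, 1 higher and 2 lower, and 3 of the kinases, all lower. In that fit, which called 29.4% of all genes, 7 of the other brakes passed, 3 higher and 4 lower. In edgeR 1 of the other brakes was also lower with library totals alone, and 1 of the kinases with length and GC trends removed.

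Of 54 target genes in the list, 39 were tested and 11 passed, 7 higher and 4 lower, which is 28.2% beside 7.95% of all genes tested. The median of their log2 fold changes was 0.05. Cxcl3 and Cxcl5, which encode chemokines that draw neutrophils, rose with log2 fold changes of 1.05 (95% interval 0.85 to 1.25) and 1.07 (95% interval 0.85 to 1.29). Cxcl3 averaged 51.8 ± 6.32 (SD, n = 3) in sgControl and 107 ± 5.57 CPM (SD, n = 2) in sgMef2d, at an edgeR adjusted p of 4.97e-05. Ier3, an early response gene linked to cell survival, rose by 0.56 on the log2 scale. The other genes that rose were Tnf, the cytokine that activates the pathway, with a log2 fold change of 1.36 from a mean of 0.999 CPM to 2.64 CPM, the chemokine genes Cxcl2 with 0.82 and Ccl5 with 0.64, and Tnfaip2 with 0.56, all named after their values were seen. Tnf had between 12 and 53 counts in a library, and its 95% interval ran from 0.70 to 2.02. Tnf, Cxcl2, Ccl5 and Tnfaip2 were not followed singly under the alternatives. Of Cxcl2, 5.84% of the 50-base words also occur elsewhere, most in Cxcl3. Lcn2, which encodes the iron-binding protein lipocalin-2, fell from 49.9 ± 2.61 to 32.1 ± 0.967 CPM, and the log2 fold change was -0.64 (edgeR adjusted p = 5.90e-04). Mmp9, a gelatinase, had a log2 fold change of -1.05 and Nuak2, a kinase, of -0.34. Nuak2 did not pass without sgMef2d replicate 1 or 2 (edgeR adjusted p = 0.114 and 0.111). The fourth gene that fell was Tgm2, a transglutaminase, with -0.34, named after its value was seen. Target genes thus moved both ways, and without either sgMef2d library 5 of them passed, 3 higher and 2 lower, beside 1.88% and 1.83% of all genes. Without sgControl replicate 1, 23 of them passed, 15 higher and 8 lower, beside 29.4% of all genes.

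**Figure D4:**
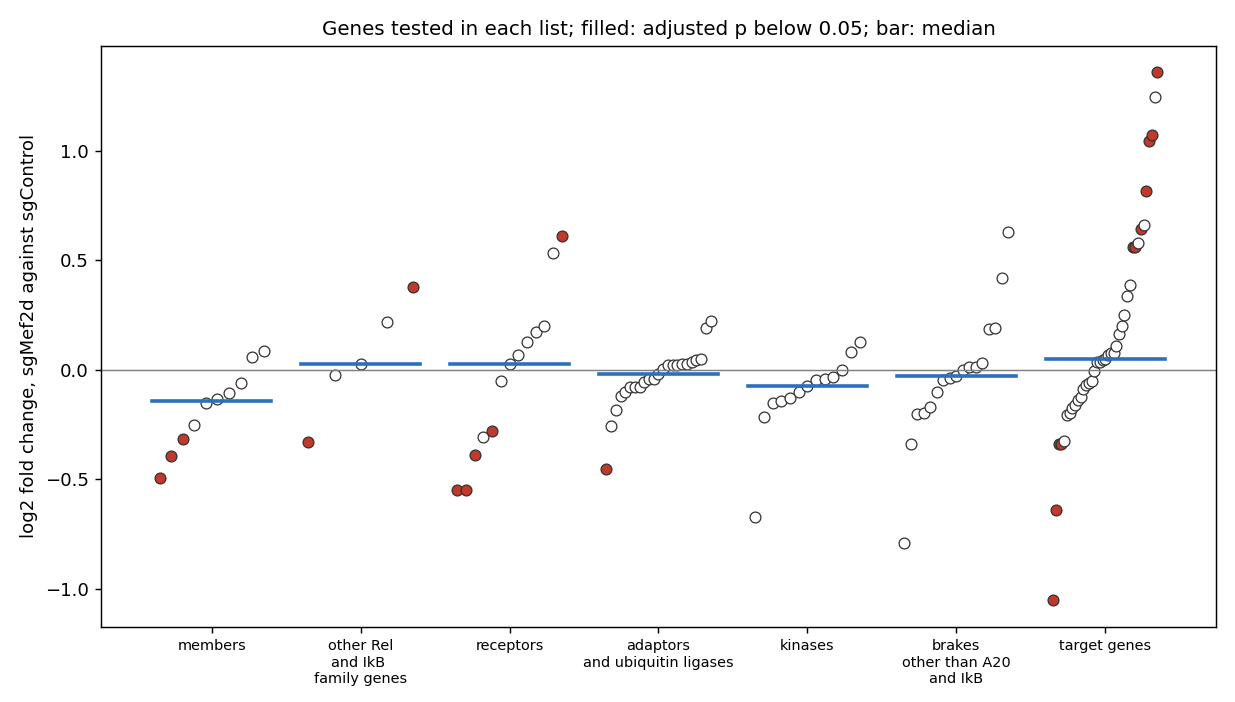
Log2 fold change of sgMef2d against sgControl (vertical axis) of each gene tested, by list (horizontal axis), filled for an adjusted p below 0.05 in edgeR's quasi-likelihood test, with the median of the list as a bar. The filled points of the 10 members are all below 0, the kinases and the other brakes have none, and the target genes have 7 above and 4 below 0.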

How the data were processed

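EpH4 RNA was selected for poly(A) and made into libraries that keep the strand. The authors aligned reads with STAR2 to GRCm38 and deposited raw counts per gene in which no gene had a highest count under 11. The submitters' processing notes also name CASAVA and Subread. Identifiers, without version, were matched to GENCODE M21 (12934 of 12934).

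The counts were scaled by TMM, filtered with edgeR's default expression filter by group, and tested with the bias-adjusted quasi-likelihood test of edgeR 4.0.16 in R 4.3.3 over all 12483 genes, with Benjamini-Hochberg adjustment, a threshold of 0.05 and no replicate block. DESeq2 1.42.0 and limma-voom (limma 3.58.1), other scalings and filters, a stricter threshold, a replicate block, removal of trends with length and GC content, and each library left out were alternatives. The common dispersion was 0.00369. Intervals hold the fitted spread between libraries, and duplicate reads from PCR could not be told. Scripts were tested on simulated counts.

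The 10 genes and the pathway lists were chosen with earlier results of these data known. All 10 genes are named. Of each pathway list, up to 3 genes with the smallest p past the threshold were named in each direction, and others are marked. The same-numbered libraries did not deviate together, as the closing section gives. Of the genome sequence, only the RefSeq promoter windows were used here.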

Additional observations from a re-analysis of the deposited data

How the results depend on the processing

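The count of the 10 genes past the threshold was 3 and stayed between 2 and 4 under other scalings, other filters, DESeq2, limma-voom, the legacy quasi-likelihood form, the removal of trends with length and GC content and the replicate block. At an adjusted p below 0.01 it was 1, with 12 pathway genes and 422 of all genes. Leaving out single libraries gave between 1 and 5 of the 10 genes, between 6 and 45 pathway genes, and between 234 and 3639 of all genes. Removing the trends gave 1555 of all genes, with 4 of the 10. Of the 10 genes and the 13 pathway genes named by rule, for which the alternatives were run, only Nfkbib changed direction, to -0.0058 under that removal, and the cause was not tested. The difference in the ratio of Birc3 to Birc2 ranged from -0.26 to 0.11, and so changed sign, as single libraries were left out. Same-numbered libraries share only a number, with correlations of their deviations of 0.011 and -0.00092, and the replicate block gave 4 of the 10 genes, Nfkbia added with an adjusted p of 0.0144 in edgeR's quasi-likelihood test, 21 pathway genes, 1 of the other brakes among them as lower, and 1254 of all genes. With an sgMef2d library left out, the other is assumed to vary like the sgControl libraries.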

Other observations

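The surroundings of the genes that fell were read as values, with all genes within 500000 bases that were tested and chosen by position after the values of the 3 genes were seen. Next to Birc2 and Birc3 on chromosome 9, the genes Mmp3, which encodes the matrix metalloprotease stromelysin-1, and Tmem123 were also lower and passed in edgeR, Mmp3 at -0.65 (adjusted p = 0.0157) and Tmem123 at -0.24 (adjusted p = 0.0361) on the log2 scale. Yap1, the effector of the Hippo pathway on the other side of Birc3, stood at 0.08 on that scale (adjusted p = 0.478). Mmp10, Cfap300 and Cep126 did not pass, with log2 fold changes of -1.34, 0.18 and -0.57. Around Tnfaip3 on chromosome 10, Arfgef3 was lower (log2 fold change -0.54, adjusted p = 0.0205), and Nhsl1, Hebp2 and Perp did not pass, with log2 fold changes of -0.20, 0.26 and 0.17.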
